A study of Homo sapiens with 8 samples.

Results

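The unfolded protein response and the chaperones of the endoplasmic reticulum (ER) were followed through 38 genes, picked by symbol from the 60564 genes of a count table, and each of the 38 symbols matched 1 row. The table came from RNA sequencing of AB8/13, a human podocyte line that is immortalised by a temperature-sensitive gene and is held at 33 °C to grow and at 37 °C to differentiate. Short hairpin RNA (shRNA) against ATOH8, a basic helix-loop-helix transcription factor, was transfected for the 4 ATOH8 knockdown libraries. Non-targeting shRNA was transfected for the 4 control libraries. Both groups spent 5 days at 37 °C, and neither was given an agent that causes ER stress, as far as the labels say. The study rests on 1 cell line, and its labels do not tell which shRNA sequences were used or how many. A lower ATOH8 level and other effects of the shRNA cannot be told apart in these libraries. The labels also do not tell whether the 4 libraries of a group were transfected separately. The p-values therefore reflect how far libraries of a group differ, and that spread can be partly technical.

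Proteins that enter the secretory pathway fold in the ER with the help of chaperones, lectins and enzymes that form disulfide bonds. When unfolded proteins build up there, the membrane sensors IRE1, PERK and ATF6 raise the output of these folding factors and of the machinery that sends misfolded proteins to the proteasome. The genes often carry an ER stress response element (ERSE) in their promoters, on which the factor NF-Y and ATF6 act, and podocytes, which secrete basement membrane and hold a glycosylated slit diaphragm, are known to depend on this system. Splicing of XBP1 mRNA, cleavage of ATF6 and phosphorylation of PERK, which switch the response on, leave no trace in counts per gene and were not measured here.

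The promoter elements of the best known members are shown first because the members that carry them did not all move in 1 direction. RefSeq promoter windows (GRCh38.p14, from 250 bases before to 50 after each annotated start) were available for 35 of the 38 genes, in 43 windows. The capitals below mark the fixed letters of ERSE (CCAAT, 9 bases of any kind, then CCACG) or of its short form ERSE-II (ATTGG, 1 base of any kind, then CCACG), read 5′ to 3′ on the strand named, and the small letters are the spacer.
HSPA5, chr9:125241391-125241409, minus strand: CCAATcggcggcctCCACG
HSP90B1, chr12:103930216-103930234, plus strand: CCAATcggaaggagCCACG
HSP90B1, chr12:103930321-103930339, minus strand: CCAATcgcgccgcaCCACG
CALR, chr19:12938384-12938402, minus strand: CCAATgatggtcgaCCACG
CANX, chr5:179698778-179698796, plus strand: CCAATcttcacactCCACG
ERO1B, chr1:236282183-236282201, plus strand: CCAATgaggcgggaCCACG
PDIA6, chr2:10812853-10812871, minus strand: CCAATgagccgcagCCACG
XBP1, chr22:28800603-28800621, minus strand: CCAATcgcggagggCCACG
CRELD2, chr22:49918554-49918572, minus strand: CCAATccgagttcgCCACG
HERPUD1, chr16:56932025-56932035, plus strand: ATTGGgCCACG
HYOU1, chr11:119057274-119057284, plus strand: ATTGGaCCACG
HYOU1, chr11:119057380-119057390, plus strand: ATTGGaCCACG
SDF2L1, chr22:21642114-21642124, minus strand: ATTGGtCCACG

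An exact ERSE on either strand was found for 8 of the 35 members (22.9%), against 25 of the 27305 genes with a window (0.0916%). ERSE-II was found for 3 members (8.57%), against 19 genes in all (0.0696%). ERSE was first described in promoters of ER chaperone genes, so that its presence in them is background and not a result of these data. HSP90B1 held 2 copies of ERSE and HYOU1 held 2 copies of ERSE-II, and the CANX element lay in 3 overlapping windows of the 4 for that gene.

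Other letters were searched in the same way. The unfolded protein response element TGACGTGG was present in 4.65% of member windows and 0.729% of all 35116 windows, and its members were HYOU1, where it overlapped an ERSE-II, and DNAJC10. The shorter core TGACGT was in 18.6% of member windows and in 7.98% of all windows. The ATF4 element TGATGNAAT was in none of the 43 member windows and in 0.991% of all. The 2 fixed ends of ERSE were common by themselves, with CCAAT in 76.7% of member windows and 34.6% of all, and CCACG in 72.1% and 38.1%. The median GC content was 67.7% in member windows and 58.7% in all windows, and its part in these shares was not tested.

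The libraries held 23229160 to 25277868 counts in the knockdown group and 21108695 to 27109043 in the control group. Mitochondrially encoded genes took 4.69% to 4.99% of counts in knockdown and 4.37% to 5.09% in control libraries. ATOH8 itself had 51, 71, 61 and 53 counts in knockdown libraries, against 175, 160, 122 and 128 in control libraries, and its groups did not overlap (log2 fold change -1.26, SE 0.127, edgeR adjusted p = 1.78e-09; two-sided exact permutation test over 70 assignments, p = 0.0286, the smallest that 4 against 4 libraries allow). Of 12 podocyte markers, 8 had enough counts to test. Among them, the actin crosslinker ACTN4 (1205 CPM in knockdown and 1030 CPM in control libraries) and KIRREL1 (489 CPM in knockdown and 626 CPM in control libraries) were abundant. CPM are counts per 1000000 counts, scaled between libraries by edgeR's TMM method.

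Markers of other cells moved with the groups. The summed level of 8 mesangial and pericyte markers, 5 of them tested, ran from 117 to 135 CPM in knockdown and from 40.7 to 43.2 CPM in control libraries. Of the 5, 4 were higher, while RGS5 was lower (6.71 CPM in knockdown and 8.82 CPM in control libraries). CSPG4 made up most of the sum (83.4 CPM in knockdown and 22.8 CPM in control libraries). The 8 endothelial markers, 4 of them tested, summed to 8.91 to 9.98 CPM in knockdown and 1.84 to 2.60 CPM in control libraries, with EMCN at 0 throughout. Of the 4, 3 were higher and 1 was not called. TIE1 made up most of the sum in knockdown libraries (6.77 CPM in knockdown and 1.05 CPM in control libraries). The 6 leukocyte markers summed to 101 to 112 CPM in knockdown and 75.2 to 85.6 CPM in control libraries, nearly all of it CD68, a lysosomal protein, with MS4A1 at 0. Of the 6 plasma cell markers, which would bring a large secretory ER, only SDC1 had enough counts to test (259 CPM in knockdown and 226 CPM in control libraries). The 8 tubule markers summed to 2.51 to 3.14 CPM in knockdown and 4.73 to 7.205 CPM in control libraries, with UMOD and AQP2 at 0. The 2 that were tested went apart, with AQP1 lower (1.14 CPM in knockdown and 5.19 CPM in control libraries) and CUBN higher (1.07 CPM in knockdown and 0.564 CPM in control libraries). The part of these differences in the results below was not tested, and in bulk RNA fewer cells of a type and less RNA per cell cannot be told apart.

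Across the 38 genes, levels in ATOH8 knockdown differed from control by small amounts and in both directions. All 38 had enough counts to be tested, with 12 higher and 14 lower in ATOH8 knockdown and 12 not called (edgeR quasi-likelihood test, adjusted p under 0.05 over all genes). Called members made up 68.4%, against 51.1% of all 16884 genes tested. In single directions, 25.2% of all genes were higher and 25.9% lower. Members are abundant genes, with a median of 93.5 CPM against 18.8 CPM for all genes tested. Between the quartiles of the member levels, 36.7 and 191 CPM, 66% of 5013 genes were called, as were 13 of the 18 members there, so the share of called members lay close to that of genes at their level.

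The changes were small. The median log2 fold change of the members was -0.02, that of all genes was -0.0007, and the range ran from -0.52 for ERO1B to 0.45 for HERPUD1. No member changed 2-fold, against 4.48% of all genes tested, a share not matched for level. The median absolute log2 fold change was 0.14 for the members and 0.19 for all genes tested. Between 36.7 and 191 CPM it was 0.14 for all genes and 0.12 for the 18 members there. The size of the changes thus lay close to that of genes at their level. The groups did not overlap for 12 members that were higher and 13 that were lower, or 25 of 38, against 45.6% of all genes tested. That share was not taken for genes at the level of the members. Of the 26 calls, 19 (7 higher and 12 lower) held in each of the 13 alternative fits, which used another scaling, test or filter, a replicate block, or 1 library fewer. The calls of ERN1, XBP1, HYOU1, CRELD2, SELENOS, DERL2 and SEC61B did not hold in all of them.

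**Figure D1:**
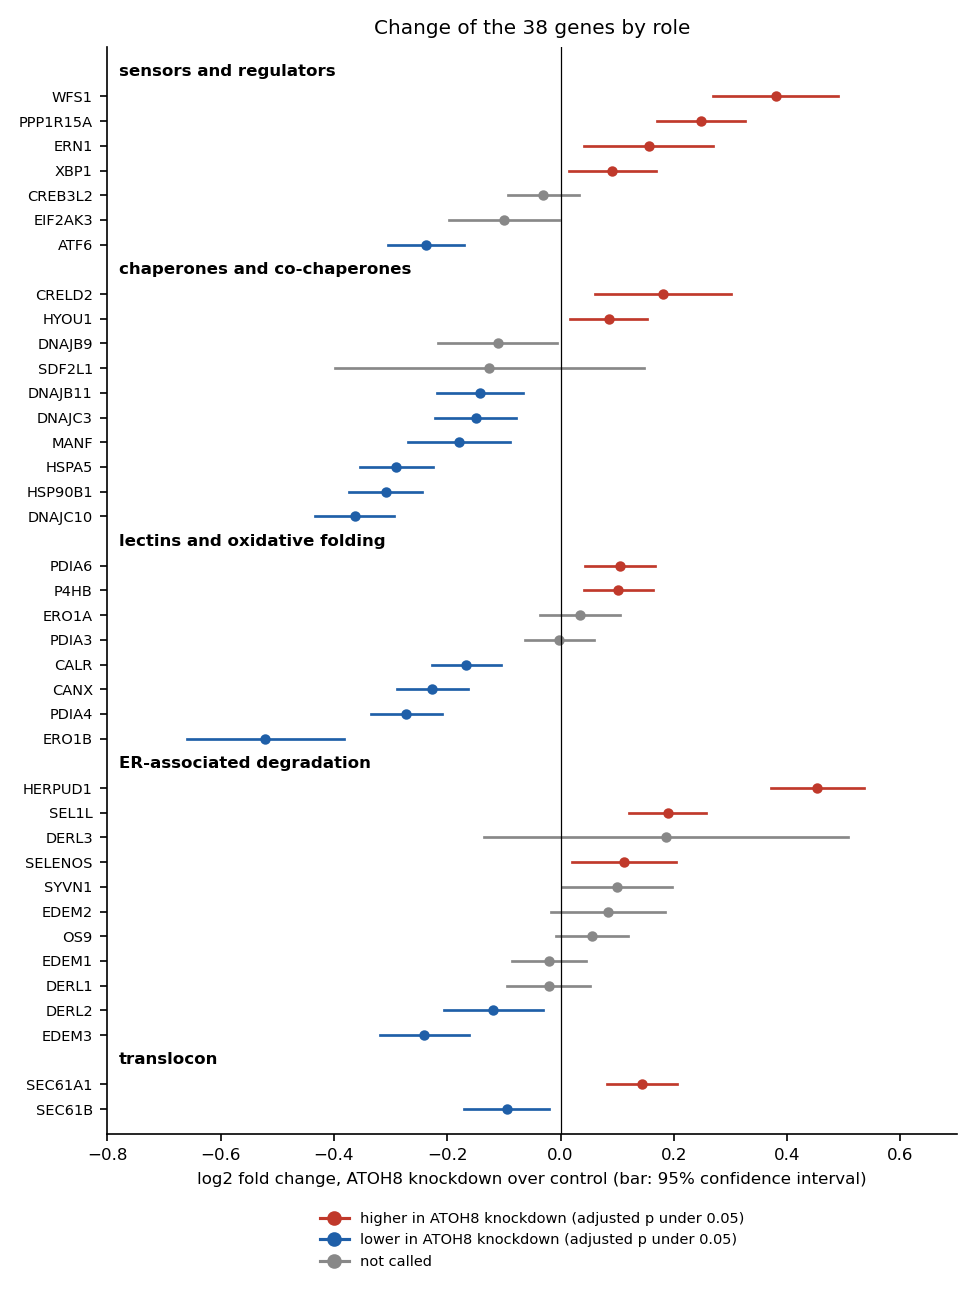
Log2 fold change of each of the 38 genes, ATOH8 knockdown over control, by role, with points for estimates and bars for 95% confidence intervals from the edgeR fit of 4 against 4 libraries. Most chaperones lie left of 0, down to -0.36 for DNAJC10, while HERPUD1 at 0.45 and WFS1 at 0.38 lie farthest to the right.

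The main HSP70 and HSP90 chaperones of the ER were lower in ATOH8 knockdown, as were 4 of the 8 other genes of this set. HSPA5 (ENSG00000044574.8, chromosome 9) encodes BiP, the HSP70 of the ER, which binds unfolded chains and holds the sensors inactive. It had 543, 545, 555 and 587 CPM in knockdown libraries, against 663, 684, 699 and 682 CPM in control libraries. Every knockdown library lay below every control library, and the log2 fold change was -0.29 (SE 0.0315, edgeR adjusted p = 7.33e-09).

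HSP90B1 (ENSG00000166598.15, chromosome 12) encodes GRP94, the HSP90 of the ER, which folds integrins and Toll-like receptors. It had 534, 546, 517 and 565 CPM in knockdown libraries and 654, 682, 666 and 677 CPM in control libraries. The groups were again apart, with knockdown at 80.8% of the control level (log2 -0.31, SE 0.031, edgeR adjusted p = 2.17e-09). DNAJC10 encodes ERdj5, a co-chaperone of BiP that also reduces disulfide bonds of proteins on their way to degradation. Its level was 162, 169, 164 and 180 CPM in knockdown libraries and 213, 215, 219 and 222 CPM in control libraries, the largest fall among the chaperones (log2 -0.36, SE 0.034, edgeR adjusted p = 4.31e-10).

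Smaller falls were found for 3 other members of this set. MANF, a secreted ER protein that protects stressed cells, averaged 44.7 ± 1.73 CPM in knockdown and 50.5 ± 2.58 CPM in control libraries (SD, n = 4 each). DNAJC3, the co-chaperone p58IPK, averaged 94.95 ± 3.92 CPM in knockdown and 105 ± 1.02 CPM in control libraries. DNAJB11, the co-chaperone ERdj3, averaged 62.4 ± 1.70 CPM in knockdown and 68.8 ± 1.69 CPM in control libraries. All 3 had groups that did not overlap, with log2 fold changes of -0.18, -0.15 and -0.14. The exons of DNAJB11 share 451 bases (7.9% of their length) with those of ENSG00000283149, a protein-coding gene on the same strand, so its count is less certain.

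Of the other 4 chaperones and partners, 2 went the other way. HYOU1, an HSP70-like exchange factor of BiP, had 177, 166, 169 and 165 CPM in knockdown libraries and 157, 163, 164 and 154 CPM in control libraries, so that the groups met within 1 CPM (log2 0.09, SE 0.033, edgeR adjusted p = 0.0339). Its call was lost in 4 of the 13 alternative fits, among them those without knockdown replicate 1 or control replicate 1 or 4, and the adjusted p ran from 0.0199 to 0.137. CRELD2, an ER protein with disulfide isomerase activity, averaged 21.6 ± 1.63 CPM in knockdown and 19.1 ± 0.701 CPM in control libraries (log2 0.18, edgeR adjusted p = 0.0105), with overlapping groups and a call lost without knockdown replicate 1 (adjusted p from 0.00304 to 0.0558 over the alternatives).

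DNAJB9 and SDF2L1 were not called. DNAJB9, the co-chaperone ERdj4 that restrains IRE1, averaged 31.2 ± 2.27 CPM in knockdown and 33.7 ± 1.296 CPM in control libraries (log2 -0.11, 95% interval -0.22 to -0.01, edgeR adjusted p = 0.0714). It passed the threshold in 3 of the 13 alternative fits, including the fit without knockdown replicate 4 (adjusted p = 0.0135, with a range of 0.0135 to 0.258). SDF2L1, a partner of ERdj3 that keeps clients soluble, averaged 14.5 ± 1.86 CPM in knockdown and 15.8 ± 2.42 CPM in control libraries, and its interval of -0.40 to 0.15 on the log2 scale left changes of either sign possible. Of the 10 chaperones and partners, 6 fell and 2 rose, with a median log2 fold change of -0.15. The 2 rises became 0 without knockdown replicate 1 and 1 without control replicate 1 or 4, by DESeq2's Wald test or with no filter on low counts. Their summed level was 1675 to 1767 CPM in knockdown libraries and 1977 to 2044 CPM in control libraries, and the groups did not overlap.

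**Figure D2:**
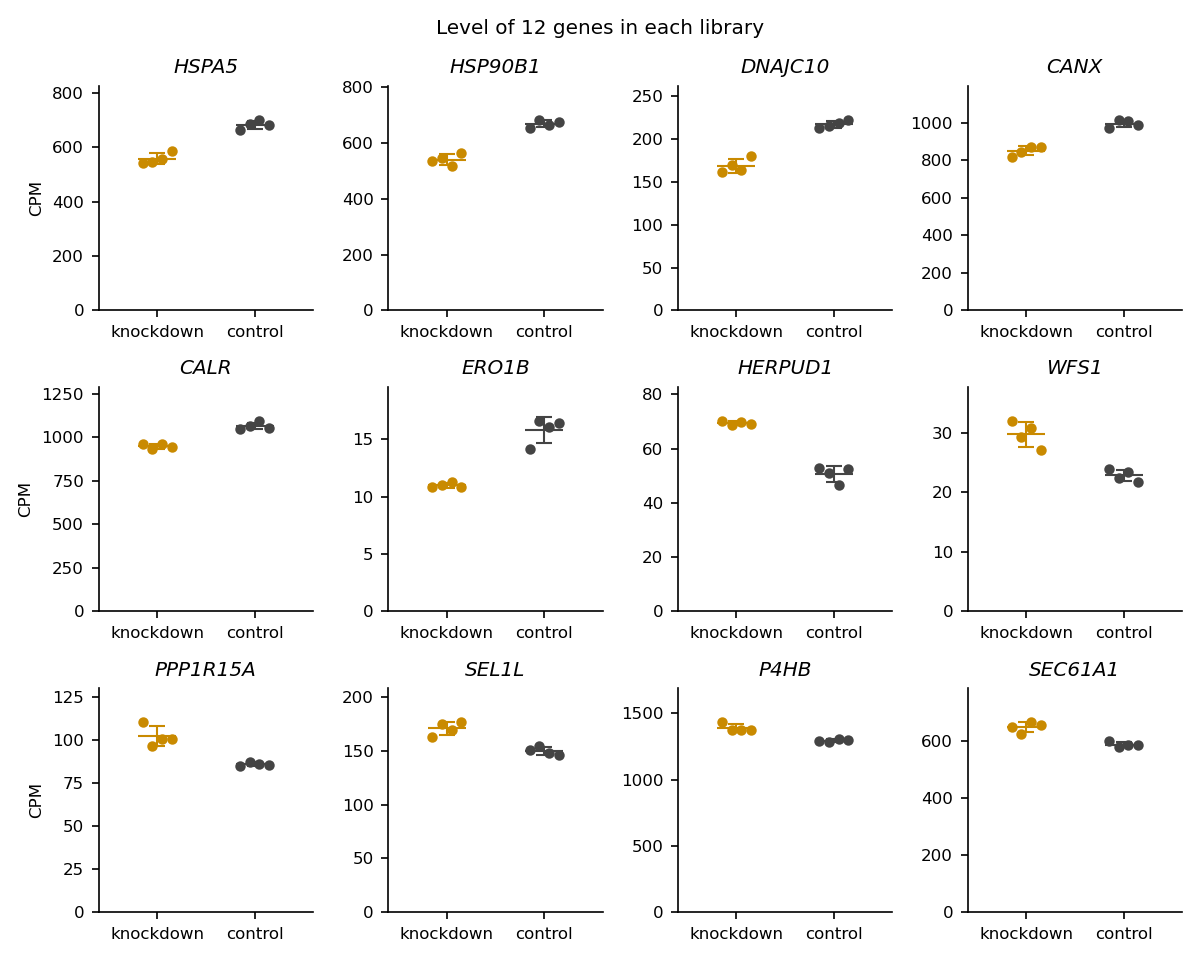
Level in CPM of 12 genes in each of the 4 ATOH8 knockdown and 4 control libraries, with points for libraries, the long bar for the mean and the error bar for 1 SD. The first 6 panels (HSPA5 to ERO1B) show genes lower in every knockdown library than in any control library, and the last 6 (HERPUD1 to SEC61A1) genes that were higher.

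The lectins that hold glycoproteins in the folding cycle fell. CALR encodes calreticulin, the soluble lectin, and had 961, 934, 961 and 943 CPM in knockdown libraries against 1047, 1066, 1093 and 1056 CPM in control libraries. CANX encodes calnexin, its membrane-bound relative, and had 818, 847, 869 and 871 CPM in knockdown libraries against 972, 1014, 1011 and 987 CPM in control libraries. Neither gene had overlapping groups. The log2 fold changes were -0.17 (SE 0.030, edgeR adjusted p = 2.54e-05) for CALR and -0.23 (SE 0.031, edgeR adjusted p = 4.05e-07) for CANX.

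Protein disulfide isomerases, which form and shuffle disulfide bonds, split by gene. PDIA4 (ERp72) had 220, 210, 218 and 209 CPM in knockdown libraries and 254, 263, 263 and 256 CPM in control libraries, a fall with no overlap (log2 -0.27, SE 0.031, edgeR adjusted p = 1.51e-08). P4HB, the founding isomerase PDI and also a subunit of collagen prolyl hydroxylase, had 1432, 1373, 1375 and 1370 CPM in knockdown libraries and 1287, 1284, 1305 and 1296 CPM in control libraries. Its groups did not overlap either, but in the other direction (log2 0.10, SE 0.030, edgeR adjusted p = 0.00495). PDIA6, which also quenches IRE1 and PERK signalling, averaged 334 ± 4.52 CPM in knockdown and 311 ± 7.15 CPM in control libraries (log2 0.11, edgeR adjusted p = 0.00405). PDIA3 (ERp57), the partner of both lectins, averaged 395 ± 10.2 CPM in knockdown and 395 ± 5.67 CPM in control libraries, with a 95% interval of -0.06 to 0.06 on the log2 scale.

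The ratio of 2 genes within a library does not depend on how libraries are scaled. P4HB had 6.32 to 6.55 counts per count of PDIA4 in knockdown libraries, against 4.89 to 5.06 in control libraries. The isomerase genes thus changed unequally, whichever way the libraries are scaled.

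The oxidases that recharge PDI also differed. ERO1B (ENSG00000086619.14, chromosome 1), the form known from insulin-producing cells, had 10.9, 11.04, 11.3 and 10.8 CPM in knockdown libraries and 14.2, 16.6, 16.1 and 16.4 CPM in control libraries. It was the largest fall of the 38 genes, to 69.7% of the control level (log2 -0.52, SE 0.068, edgeR adjusted p = 1.90e-07). ERO1A, the widely expressed form that responds to hypoxia, averaged 141 ± 4.36 CPM in knockdown and 138 ± 5.33 CPM in control libraries and was not called (log2 0.03, interval -0.04 to 0.11). Knockdown libraries held 0.0763 to 0.0803 counts of ERO1B per count of ERO1A, against 0.103 to 0.124 in control libraries. Of the 8 lectins and oxidative folding genes, 4 fell and 2 rose, with a median of -0.08, and their summed level was 4236 to 4322 CPM in knockdown and 4402 to 4535 CPM in control libraries.

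Genes of ER-associated degradation, which recognises misfolded proteins and passes them through the membrane to the proteasome, moved in both directions. HERPUD1 (ENSG00000051108.15, chromosome 16) encodes Herp, a membrane protein that assembles the HRD1 ubiquitin ligase complex. It had 70.1, 68.8, 69.8 and 68.9 CPM in knockdown libraries and 52.7, 50.8, 46.5 and 52.4 CPM in control libraries. This was the largest rise of the 38 genes, 1.37-fold and with no overlap (log2 0.45, SE 0.040, edgeR adjusted p = 1.32e-10).

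SEL1L, the scaffold of the same ligase complex, had 163, 175, 169 and 176 CPM in knockdown libraries and 151, 154, 148 and 146 CPM in control libraries. It rose with no overlap (log2 0.19, SE 0.033, edgeR adjusted p = 2.36e-05). SYVN1, the ligase HRD1 itself, averaged 32.3 ± 1.55 CPM in knockdown and 30.1 ± 0.701 CPM in control libraries and was not called (log2 0.10, edgeR adjusted p = 0.0798, with a range of 0.0410 to 0.230 over the alternatives). Its exons share 398 bases with those of FAU, a ribosomal protein gene on the same strand, so its count is less certain. SELENOS, a selenoprotein that recruits the ATPase p97 to the membrane, averaged 38.5 ± 1.73 CPM in knockdown and 35.6 ± 0.544 CPM in control libraries (log2 0.11, edgeR adjusted p = 0.0362). That call was lost in 8 of the 13 alternative fits, among them those without knockdown replicate 1 or 3 or any 1 control library, with adjusted p from 0.0213 to 0.126.

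The mannosidase-like proteins EDEM1, EDEM2 and EDEM3 mark glycoproteins for degradation, and the 3 genes differed. EDEM3 had 71.99, 80.7, 71.6 and 76.3 CPM in knockdown libraries and 86.6, 91.2, 88.1 and 89.3 CPM in control libraries, a fall with no overlap (log2 -0.24, SE 0.039, edgeR adjusted p = 5.77e-06). EDEM1, a classic target of XBP1, averaged 124 ± 2.85 CPM in knockdown and 125 ± 1.43 CPM in control libraries, with an interval of -0.09 to 0.05 on the log2 scale. EDEM2 had a log2 fold change of 0.08 (interval -0.02 to 0.19) and was not called.

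Derlins are membrane proteins of the exit channel. DERL2 averaged 57.3 ± 3.01 CPM in knockdown and 62.2 ± 2.98 CPM in control libraries (log2 -0.12, edgeR adjusted p = 0.0220), but its groups overlapped and the call was lost in 5 of 13 alternative fits, among them those without knockdown replicate 1 or control replicate 2, 3 or 4 (adjusted p from 0.00379 to 0.106). DERL1 averaged 89.5 ± 3.68 CPM in knockdown and 90.8 ± 1.79 CPM in control libraries and was not called. DERL3, known mostly from secretory organs, was the least expressed member, with 2.40 ± 0.278 CPM in knockdown and 2.11 ± 0.180 CPM in control libraries. Its exons overlap those of SMARCB1 on the opposite strand over 77% of their length, and no source used here says whether strand was used in counting. OS9, a lectin that delivers glycoproteins to the HRD1 complex, averaged 175 ± 1.40 CPM in knockdown and 169 ± 4.58 CPM in control libraries. Its groups did not overlap, yet it was not called (log2 0.06, edgeR adjusted p = 0.141). Of the 11 degradation genes, 3 rose, 2 fell and 6 were not called, and 1 fell by DESeq2's Wald test and without knockdown replicate 1 or control replicate 2, 3 or 4.

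The translocon genes went apart. SEC61A1, the pore of the channel through which new chains enter the ER, had 647, 621, 664 and 656 CPM in knockdown libraries and 599, 578, 583 and 583 CPM in control libraries. It rose with no overlap (log2 0.14, SE 0.030, edgeR adjusted p = 0.000221). SEC61B, a small subunit of the same channel, averaged 58.9 ± 1.03 CPM in knockdown and 62.9 ± 1.53 CPM in control libraries (log2 -0.10, edgeR adjusted p = 0.0317), and its call was lost in 8 of 13 alternative fits, among them those without knockdown replicate 1, 2 or 4 or control replicate 1, 3 or 4 (adjusted p from 0.0229 to 0.0847). Per count of SEC61B there were 10.5 to 11.2 counts of SEC61A1 in knockdown and 9.07 to 9.52 in control libraries.

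Among the sensors, the gene of 1 branch fell and that of another was slightly higher. ATF6, the membrane-bound transcription factor that is released by cleavage in the Golgi, had 87.1, 90.2, 90.2 and 90.2 CPM in knockdown libraries and 107, 106, 105 and 105 CPM in control libraries. The groups lay far apart for their spread (log2 -0.24, SE 0.033, edgeR adjusted p = 4.85e-07). ERN1, which encodes IRE1, had 23.3, 21.2, 20.96 and 20.9 CPM in knockdown libraries and 19.6, 18.6, 18.8 and 20.4 CPM in control libraries (log2 0.16, SE 0.056, edgeR adjusted p = 0.0199). Its groups did not overlap, but the call was lost without knockdown replicate 1 and without control replicate 2 or 3 (adjusted p from 0.0134 to 0.0893 over the alternatives). EIF2AK3, which encodes PERK, averaged 35.3 ± 1.54 CPM in knockdown and 37.8 ± 1.97 CPM in control libraries and was not called (log2 -0.10, edgeR adjusted p = 0.0810). Without control replicate 3 (adjusted p = 0.0244) or knockdown replicate 3 it passed the threshold, with a range of 0.0244 to 0.226.

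XBP1, whose mRNA IRE1 splices into the form for an active transcription factor, had 91.8, 92.6, 103 and 95.2 CPM in knockdown libraries and 91.1, 89.9, 90.7 and 87.8 CPM in control libraries. The rise was slight (log2 0.09, SE 0.038, edgeR adjusted p = 0.0435), and the call was lost in 8 of the 13 alternative fits, among them those without knockdown replicate 3 or 4 or any 1 control library. The adjusted p ran from 0.0214 to 0.252, the highest without knockdown replicate 3, where the log2 fold change was 0.05. These counts do not tell spliced from unspliced mRNA. CREB3L2, a relative of ATF6 linked to cartilage secretion, averaged 182 ± 2.80 CPM in knockdown and 185 ± 3.65 CPM in control libraries, with an interval of -0.09 to 0.03 on the log2 scale.

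PPP1R15A and WFS1, regulators of the response, rose. PPP1R15A encodes GADD34, which brings a phosphatase to eIF2-alpha and so ends the translation block set by PERK. It had 111, 96.8, 101 and 101 CPM in knockdown libraries and 84.9, 87.7, 86.3 and 85.5 CPM in control libraries (log2 0.25, SE 0.038, edgeR adjusted p = 2.50e-06). WFS1, an ER membrane protein mutated in Wolfram syndrome, had 32.0, 29.3, 30.8 and 27.1 CPM in knockdown libraries and 23.9, 22.4, 23.4 and 21.8 CPM in control libraries. Neither gene had overlapping groups, and WFS1 stood at 130.1% of control (log2 0.38, SE 0.054, edgeR adjusted p = 9.39e-07). Of the 7 sensors and regulators, 4 rose, 1 fell and 2 were not called, with 2 rises by DESeq2's Wald test and without control replicate 2 or 3, and 2 falls without control replicate 3 or knockdown replicate 3.

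Levels between genes were compared per kilobase of exon. The length was that of all exons annotated for a gene in GENCODE release 29, with overlaps merged. CALR was the most abundant, at 350 CPM per kilobase in knockdown and 393 in control libraries, followed by P4HB at 262 in knockdown and 244 in control. Without division by length, P4HB was above CALR in knockdown (1388 and 950 CPM) and in control libraries (1293 and 1065 CPM). The ranks thus depend on the annotated lengths. HSPA5 had rank 3 in both groups, with 143 in knockdown and 175 in control. SEC61A1 had rank 4 in knockdown libraries at 138 and rank 6 in control libraries at 125, past CANX and HSP90B1, which fell. The sensors were far lower, with 1.99 in knockdown and 1.78 in control for ERN1 and 11.3 and 13.4 for ATF6. Of the 5 most abundant genes in control libraries, 4 (CALR, HSPA5, CANX and HSP90B1) fell and P4HB rose. The 38 genes together made up 0.810% to 0.823% of all counts in knockdown and 0.8293% to 0.858% in control libraries.

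**Figure D3:**
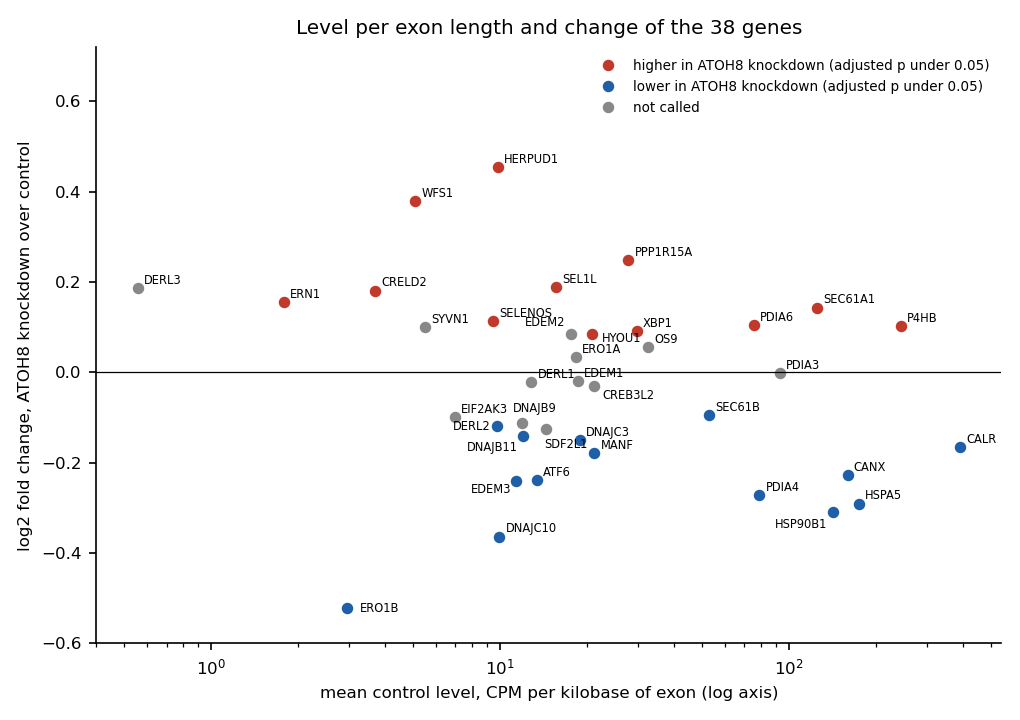
Mean control level in CPM per kilobase of exon on a log axis against the log2 fold change, ATOH8 knockdown over control, for the 38 genes, coloured by call. CALR, HSPA5, CANX and HSP90B1 lie at the lower right and P4HB and SEC61A1 at the upper right, while the largest rise, HERPUD1 at 0.45, is a gene of middle level.

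Genes known as targets of the same sensor did not move as 1. Of 12 members known to respond to ATF6, 5 rose (HERPUD1, SEL1L, CRELD2, XBP1 and HYOU1) and 5 fell (HSP90B1, HSPA5, PDIA4, MANF and CALR), with a median log2 fold change of -0.02. Of 10 members known to respond to XBP1, 2 rose (SEC61A1 and PDIA6), 4 fell (DNAJC3, DNAJB11, DERL2 and SEC61B) and 4 were not called, with a median of -0.06. Without knockdown replicate 1 or control replicate 1 or 4, by DESeq2's Wald test or with no filter, 3 of the ATF6 list rose. Without knockdown replicate 1 or control replicate 3 or 4, or by DESeq2's Wald test, 2 of the XBP1 list fell. These lists come from general knowledge of the response and are not a test of either factor.

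The same held for the promoter elements printed above. Of the 8 members with an exact ERSE, 5 fell (ERO1B, HSP90B1, HSPA5, CANX and CALR) and 3 rose (CRELD2, PDIA6 and XBP1), with a median log2 fold change of -0.20 and a range of -0.52 to 0.18. The 5 falls and the rise of PDIA6 were called in all 13 alternative fits, the rise of CRELD2, whose groups overlap, in 11 and that of XBP1 in 5. Of the 3 with ERSE-II, HERPUD1 and HYOU1 rose and SDF2L1 was not called. The 24 members with a window and neither element had a median of -0.03, with 7 higher, 9 lower and 8 not called. A match is a description of letters and does not show that a factor binds there, and the difference between these sets was not tested. Variant or more distant elements were not searched, so a missing match does not show that a gene lacks one.

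**Figure D4:**
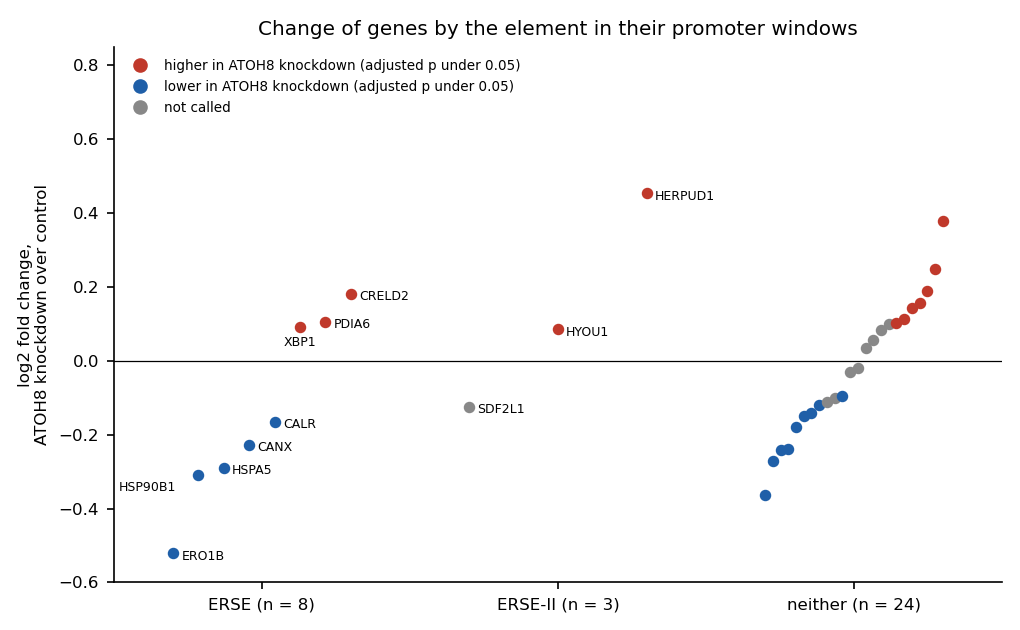
Log2 fold change, ATOH8 knockdown over control, of the 35 members with a promoter window, by exact ERSE, exact ERSE-II or neither, each point 1 gene coloured by its call and spread sideways in order of its change. The ERSE genes run from -0.52 for ERO1B to 0.18 for CRELD2, on both sides of 0.

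Other genes of the pathway, in 8 lists, were called at 59.1%, against 51.1% of all genes tested. Among all genes between 36.7 and 191 CPM the share was 66%, and no share matched to the levels of these lists was taken. Of 154 tested, 32 rose and 59 fell, with a median log2 fold change of -0.04. The branch of PERK and ATF4, through which a translation block turns on stress and amino acid genes, had 6 higher, 1 lower and 4 not called of 11 (median 0.22). The rises with the smallest adjusted p were SESN2, a stress-induced inhibitor of mTORC1 (89.1 CPM in knockdown and 63.8 CPM in control libraries, log2 0.48), TRIB3, a pseudokinase that restrains ATF4 (log2 0.51), and NUPR1, a stress-induced chromatin protein (log2 0.54). DDIT3, which encodes CHOP, was named after its values were seen and was among the rises. Its groups overlapped (log2 0.22, SE 0.073, edgeR adjusted p = 0.0113). ATF4 mRNA, whose control is mainly translational, was not called (log2 -0.08, SE 0.032). PPP1R15B, the constitutive partner of PPP1R15A, fell (50.04 CPM in knockdown and 58.4 CPM in control libraries, log2 -0.22), and without knockdown replicate 1 or 4 there were 2 falls.

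Further folding genes mostly fell where they were called. Of 37 tested, 17 fell, 6 rose and 14 were not called (median -0.05), with 11 falls by DESeq2's Wald test. HSPA13, another HSP70 of the ER, had 49.97 CPM in knockdown and 82.8 CPM in control libraries (log2 -0.73, SE 0.041), and the prolyl isomerase FKBP9 (log2 -0.47) and the glycoprotein sensor relative UGGT2 (log2 -0.40) fell as well. The rises with the smallest adjusted p were the collagen chaperone FKBP10 (log2 0.42), the lectin malectin, MLEC (log2 0.28), and the calcium-binding RCN2 (log2 0.26).

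Of 28 further degradation genes, 8 fell, 4 rose and 16 were not called. HERPUD2, the relative of HERPUD1, had 17.3 CPM in knockdown and 31.5 CPM in control libraries (log2 -0.86, SE 0.055). Knockdown libraries held 3.90 to 4.16 counts of HERPUD1 per count of HERPUD2, against 1.37 to 1.82 in control libraries, with no overlap. UBXN4 (log2 -0.20) and FAF2 (log2 -0.20), both of which recruit p97, also fell. The ligases RNF185 (log2 0.19) and RNF139 (log2 0.23) and the ubiquitin-conjugating enzyme UBE2G2 (log2 0.11) rose.

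Of 33 genes of translocation, signal peptide removal and glycan transfer, 15 fell and 7 rose (median -0.07). STT3A, the catalytic subunit that adds glycans to entering chains, had 201 CPM in knockdown and 276 CPM in control libraries (log2 -0.46, SE 0.031), and the signal recognition particle genes SRP9 (log2 -0.39) and SRP72 (log2 -0.28) fell, while SRP14 (log2 0.23), the signal peptidase subunit SEC11A (log2 0.22) and the glycan transfer subunit DDOST (log2 0.14) rose. Of 23 genes of KDEL receptors and transport between ER and Golgi, 11 fell and 3 rose (median -0.05). The cargo lectin LMAN1 had 244 CPM in knockdown and 317 CPM in control libraries (log2 -0.38), and the coat assembly genes SAR1A (log2 -0.36) and SEC24A (log2 -0.33) fell too. SEC23A (log2 0.19) and the retrieval receptors KDELR1 (log2 0.11) and KDELR3 (log2 0.13, overlapping groups) rose.

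The remaining lists were small. Of 8 other sensors and proteases tested, 3 fell, namely CREB3L1 (log2 -0.43), TRAF2 (log2 -0.27), which couples IRE1 to kinases, and MBTPS2 (log2 -0.23), which cuts ATF6 within the membrane, and CREB3 rose (log2 0.23). Of 8 transcripts known to be cut by IRE1, 4 rose, among them the scavenger receptor gene SCARA3 (13.8 CPM in knockdown and 3.53 CPM in control libraries, log2 1.96, SE 0.106), COL6A1 (log2 0.27) and PDGFRB (log2 0.58), itself on the mesangial list above. SPARC fell (log2 -0.09, edgeR adjusted p = 0.0147), a call lost without control replicate 3. Of 6 receptors for the autophagy of ER, RETREG1 (40.1 CPM in knockdown and 58.4 CPM in control libraries, log2 -0.54), RTN3 (log2 -0.17) and CCPG1 (log2 -0.13, overlapping groups, not called without knockdown replicate 3) fell and CALCOCO1 (log2 0.30) rose, with 2 rises without knockdown replicate 2.

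**Figure D5:**
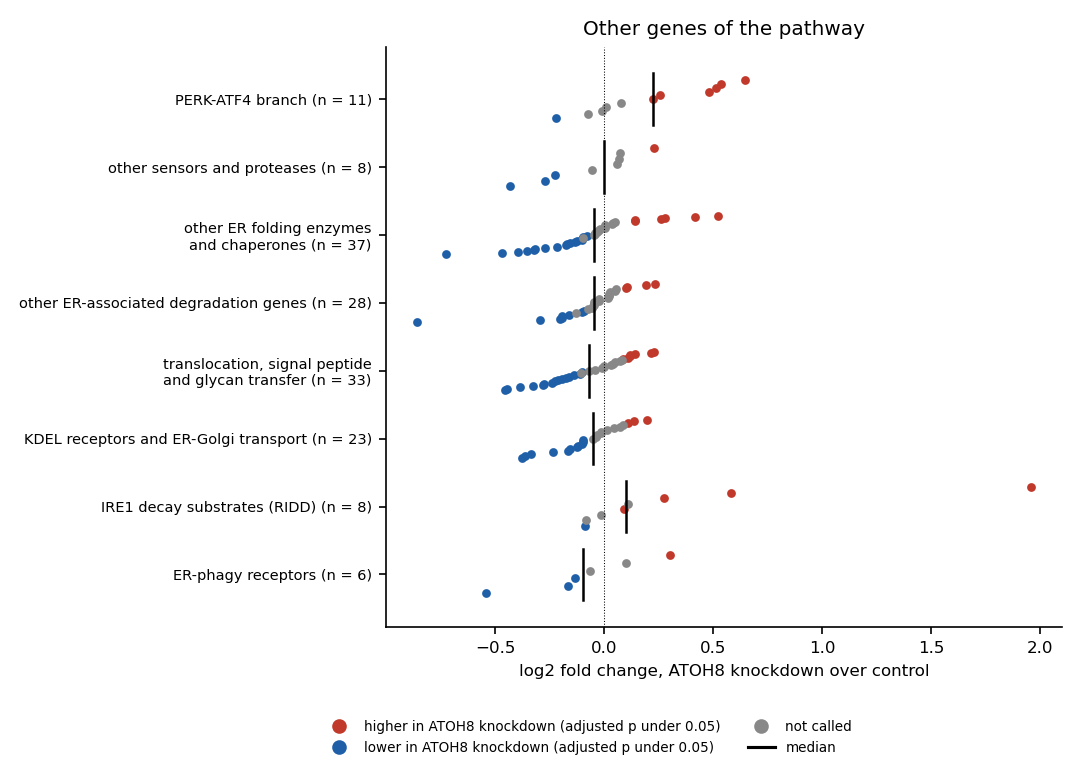
Log2 fold change, ATOH8 knockdown over control, of 154 other genes of the pathway in 8 lists, each point 1 gene coloured by its call, with a vertical bar at the median of the list. The list of PERK and ATF4 has its median at 0.22, and the medians of the folding, degradation, translocation and transport lists lie between -0.07 and -0.05.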

How the data were processed

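The authors deposited raw read counts per gene with 1 column per library. Per the labels' protocols, directional libraries were made from polyadenylated RNA, with RNA integrity over 7.0. The build hg19 and the tools STAR, featureCounts, FastQC and DESeq2 are named in the submitters' processing notes; their versions, the annotation and the strand setting are not stated in any source used. Of 60609 rows, 1 with a missing cell and 44 pseudoautosomal copies at 0 were left out. Gene names were matched by gene ID, and exon lengths, chromosomes and overlaps from GENCODE release 29, which describes GRCh38 and not hg19. Promoter windows are RefSeq's, on GRCh38.p14.

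Genes passing filterByExpr were scaled by TMM and tested with the quasi-likelihood F test (edgeR 4.0.16, limma 3.58.1, R 4.3.3), with Benjamini-Hochberg adjustment over all genes tested and a threshold of 0.05. Fold changes are log2 of knockdown over control, with SE from the F statistic. DESeq2 1.42.0 served as an alternative. The script was tested on simulated counts. Pairs of libraries in a group had a chi-square per gene of 1.89 to 4.42, so none was a duplicate. The members and lists were chosen with earlier results of these data known. The text names every member, ATOH8 and, per list, up to 3 rises and 3 falls with the smallest adjusted p. Depth limits precision most for DERL3, with 48 counts in its lowest library. Of the podocyte markers, 1 is not reported here.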

Additional observations from a re-analysis of the deposited data

Results flagged for a closer look

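In each group of 4 libraries, the library farthest from the others was compared with the whole range, for every member, ATOH8, the summed members and the named genes of the other lists. Of 160 groups checked, 7 had 1 library standing apart, and chance alone flags about 1 group in 20. Among the knockdown libraries, replicate 1 was low for ATF6 (87.1 CPM, the others at 90.2 CPM), high for ERN1 (23.3 CPM, the others 20.9 to 21.2 CPM) and high for P4HB (1432 CPM, the others 1370 to 1375 CPM). Knockdown replicate 2 was low for SESN2 (84.3 CPM, the others 90.2 to 91.2 CPM), and knockdown replicate 4 was low for PDGFRB (8.598 CPM, the others 9.90 to 10.1 CPM). Among the control libraries, replicate 1 was high for SYVN1 (31.2 CPM, the others 29.7 to 29.9 CPM) and low for DERL2 (57.8 CPM, the others 63.6 to 63.8 CPM).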

How the results depend on the processing

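The counts of members called kept within 1.5 times of 12 higher and 14 lower in each of the 13 alternative fits, with 8 to 12 higher and 12 to 15 lower when 1 library was left out, and 8 higher and 12 lower by DESeq2's Wald test. Counts over the other pathway genes and over all genes also stayed within 1.5 times, and the ATOH8 log2 fold change kept its sign and call (-1.34 to -1.20 with 1 library left out). No fit moved the median of all genes by 0.1 or more on the log2 scale. The sign of PDIA3, near 0 and not called in any fit, turned with DESeq2 size factors (log2 0.0011), when genes needed 1 CPM in 4 libraries (log2 0.0049) and in 4 of the fits without 1 library (-0.0149 to 0.0143 over all 8). That of DERL1, also never called, turned without knockdown replicate 1 (-0.0445 to 0.0011 over all 8). The cause was not tested. Calls lost in some fits are given beside the genes.

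Deviations of libraries with the same replicate number correlated at 0.001 to 0.057, and those with different numbers at -0.082 to 0.033. Knockdown replicate 3 was closer to control replicate 1 than to control replicate 3. Values this near 0 do not settle whether replicate numbers pair the samples, and the main fit used no pairing. With the replicate block, 12 members were higher and 15 lower, the addition being DNAJB9 (adjusted p = 0.0357), and no member's call was lost; in the list of PERK and ATF4, 2 genes fell. Among the members, depth limits DERL3 most.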

Other observations

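Genes outside the 38 that hold an exact ERSE in a RefSeq promoter window were looked up as well. Of 17 such genes, 8 had enough counts to test, with 2 higher, 3 lower and 3 not called in ATOH8 knockdown. FICD, which modifies and inactivates BiP, rose (log2 0.58, SE 0.064, edgeR adjusted p = 9.37e-09), and so did SYNPO, the actin-associated gene of podocyte foot processes (log2 0.53, SE 0.062, edgeR adjusted p = 2.74e-08). SERP1, a small protein of the translocon, fell (log2 -0.36, SE 0.035, edgeR adjusted p = 1.04e-09), as did EIF2A (log2 -0.40) and TRIM5 (log2 -0.60). Of 16 further genes with an exact ERSE-II, 11 were tested, with 4 higher and 4 lower. These genes were chosen by sequence after the fold changes of the members had been seen, and no binding was measured.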
